A study of Medicago sativa with 86 samples.

Results

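Leaf transcriptomes of alfalfa (Medicago sativa) grown at 420 ppm CO2 were compared between plants fed 6 mM KNO3, the low nitrogen supply, and plants fed 10 mM KNO3, the medium supply. The comparison held 27 of the 86 libraries of the series, 13 at 6 mM and 14 at 10 mM, taken by their labels for nitrate and CO2. Effective Agate contributed 4 libraries at 6 mM and 3 at 10 mM, ineffective Agate 3 and 3, effective Saranac 3 and 4, and ineffective Saranac 3 and 4. Agate and Saranac are alfalfa cultivars, and effective or ineffective is the labelled capability for nitrogen fixation. These 4 lines were fitted as a block. A further Agate library at 10 mM and 420 ppm was left out because its labels contradict each other on fixation. All plants were inoculated with rhizobium, the bacteria that form nitrogen-fixing nodules on legumes, and were fertilized weekly with KNO3 in Hoagland nutrient solution. Other libraries served for contrast: 30 at 6 or 10 mM and 600 ppm CO2, and 15 at 16 mM and 420 ppm.

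The labels do not give the age of the plants, do not say whether ineffective fixation lies in the plant or in the bacterium, and do not state how many plants went into a library. The p-values therefore describe library-to-library spread, which may be technical. Potassium was supplied with the nitrate, so 6 and 10 mM differ in both and their effects cannot be told apart. The numbers in the library titles run in blocks by nitrate level, so anything that followed that order cannot be told apart from nitrate either. Replicate 3 of ineffective Saranac at 6 mM carries a title number from the block of 16 mM libraries, and without it 810 genes were called in the main comparison in place of 994.

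Nitrate is taken up by roots, reduced to nitrite by nitrate reductase and then to ammonium by nitrite reductase, and its nitrogen enters amino acids through glutamine synthetase and glutamate synthase. It is also a signal that changes the expression of genes for its own transport and assimilation. A legume draws on root nitrate and on nitrogen fixed in its nodules, and nitrate supply is known to restrain nodulation and fixation. None of the 49095 gene identifiers of the count table matched the table of gene names used here, so no identifier below could be tied to these steps, no pathway list could be read, and the labelled tissue could not be checked against leaf markers. Genes are therefore described by identifier, level and behaviour across libraries.

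The total count per library ran from 15750805 to 25279913 at 6 mM and from 13543807 to 23370285 at 10 mM, with a median of 20013670 at 6 mM and 19464000 at 10 mM. On the first principal component, which held 13.7% of the variance of the 27 libraries, nitrate level accounted for 34% and line for 4.69%. The second component held 8.98%, of which line accounted for 91.3% and nitrate for 0.498%. On the first component 3 libraries lay more than 3 scaled median absolute deviations from the median, all at 10 mM: replicate 3 of effective Agate, replicate 1 of ineffective Agate and replicate 1 of ineffective Saranac. A library that stood apart in the other direction was replicate 4 of ineffective Agate at 10 mM, at 63.6, beyond the highest 6 mM library at 57.7. In the genes called lower at 6 mM its mean log2 CPM (counts scaled to library size) was 2.44, within 2.15 to 2.68 at 6 mM. In the genes called higher at 6 mM it was 3.48, under the 3.99 to 4.40 at 6 mM and within 2.86 to 3.66 at 10 mM. Counts, scores, line by line values and spread are given with these libraries and without the 3 far ones, a setting chosen after the data were seen.

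Leaves at 6 mM differed from leaves at 10 mM mainly by genes with less transcript. Of 21921 genes tested with the quasi-likelihood test of edgeR, 758 were lower and 236 higher at 6 mM at a Benjamini-Hochberg adjusted p under 0.05. This is 4.53% of the genes tested, 3.46% lower and 1.08% higher. The count moved with the method: DESeq2 called 1320 lower and 676 higher, and limma-trend 426 lower and 188 higher. With replicate number as a further block, edgeR called 174 lower and 33 higher. It also moved with the libraries: without the 3 far ones, all at 10 mM, edgeR called 133 lower and 29 higher. The 758 lower genes had a median log2 fold change of -1.54, and 506 of them exceeded 1 in size. The 236 higher ones had a median of 0.69, and 69 of them were over 1. The median over all genes tested was 0.013. Among the lower genes 118 had a log2 fold change below -4, and 14 had at most 3 counts over all 13 libraries at 6 mM. In bulk leaf RNA, fewer cells of a type and less RNA per cell cannot be told apart.

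The differences with the smallest p by edgeR were in a pair of identifiers that were nearly silent at 6 mM. They were not the largest in size, since log2 fold changes of the lower genes reached -10.6. MsG0280008438.01 had a lowest level of 0, a median of 0 and a highest level of 0.387 CPM (counts scaled to library size) in the 13 libraries at 6 mM, against a lowest level of 0.132, a median of 37.3 and a highest level of 297 CPM in the 14 libraries at 10 mM. It had no counts in 7 libraries at 6 mM and counts in all 14 at 10 mM. The levels overlapped only because of replicate 4 of ineffective Agate at 10 mM, which held the 0.132 CPM, and every other library at 10 mM held at least 8.23 CPM. Its log2 fold change was -9.37 ± 0.84 (SE, edgeR, adjusted p = 8.70e-07).

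The line by line values of MsG0280008438.01 show the same split. Effective Agate had 0, 0.377, 0.138 and 0.387 CPM at 6 mM, against 46.2, 29.3 and 297 CPM at 10 mM. Ineffective Agate had 0, 0 and 0.185 CPM at 6 mM, against 70.8, 22.4 and 0.132 CPM at 10 mM. In the Agate lines all libraries at 10 mM but replicate 4 of ineffective Agate therefore lay above every library at 6 mM. Effective Saranac had 0.139, 0.105 and 0 CPM at 6 mM, against 89.2, 156, 36.1 and 8.23 CPM at 10 mM. Ineffective Saranac had no counts in its 3 libraries at 6 mM, against 38.5, 9.81, 24.1 and 50.6 CPM at 10 mM. Both Saranac lines were fully separated.

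MsG0280008439.01, the next identifier in the numbering of the table, ran from 0 to 0.277 CPM with a median of 0.0483 at 6 mM, and from 0 to 85.8 CPM with a median of 19.2 at 10 mM. Again replicate 4 of ineffective Agate was the exception at 10 mM, with no counts, and the other 13 libraries held at least 5.38 CPM. The log2 fold change was -8.23 ± 0.80 (SE, edgeR, adjusted p = 2.59e-06). Whether reads were split between this pair as near-identical copies was not tested, so their separate levels are uncertain.

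The leading gene with more transcript at 6 mM was MsG0480018392.01, and its change was graded rather than on or off. It ran from 7.89 to 27.4 CPM with a median of 15.2 at 6 mM, and from 1.64 to 8.76 CPM with a median of 5.89 at 10 mM. Both Agate lines were separated without overlap, while in both Saranac lines the lowest library at 6 mM fell below the highest at 10 mM. The mean was 14.4 ± 6.23 CPM at 6 mM (SD, n = 13) and 5.48 ± 2.27 CPM at 10 mM (SD, n = 14), and the fitted log2 fold change was 1.45 ± 0.23 (SE, edgeR, adjusted p = 0.0011).

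MsG0380015000.01 was the other higher identifier that met the rule for naming, and it rested on few libraries. Its counts summed to 1596 over the libraries at 6 mM and 2 over those at 10 mM, a ratio of 813 per total count. Its exact 95% interval, for counting error alone, was 224.7 to 6719. At 6 mM 1 library of effective Saranac held 55 CPM, 2 of ineffective Saranac held 10.3 and 10.7 CPM, 1 of each Agate line held 1.01 and 0.348 CPM, and the remaining 8 had no counts, as did 13 of 14 libraries at 10 mM. It was called by edgeR (adjusted p = 0.0020) but not by limma-trend (adjusted p = 0.14), DESeq2 gave it no adjusted p, and edgeR did not call it when the libraries of replicate 1, 2 or 3 were left out.

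**Figure D1:**
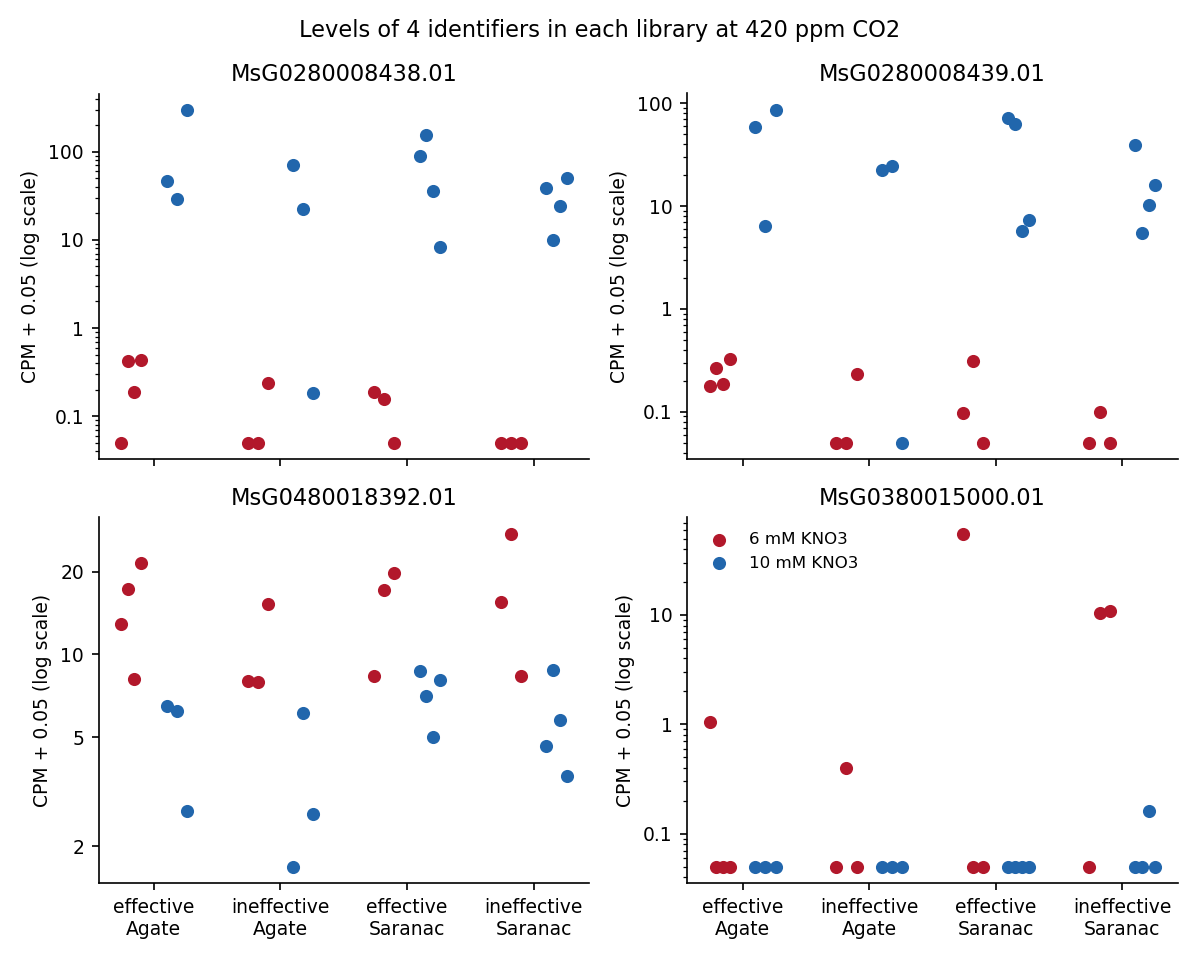
Level of 4 identifiers in each library at 420 ppm CO2, by line, as CPM plus 0.05 on a log axis, 6 mM in red to the left of 10 mM in blue, each point 1 library. The upper pair is near 0 at 6 mM and at 10 mM in replicate 4 of ineffective Agate, and MsG0480018392.01 at 6 mM runs from 7.89 to 27.4 CPM.

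Calls were more frequent among genes with more reads, up to 1000 CPM. By mean CPM over the 27 libraries, 1.17% of the genes under 1 CPM were lower at 6 mM, 2.74% of those from 1 to 10, 4.60% of those from 10 to 100 and 7.60% of those from 100 to 1000 CPM. Of the 112 genes at 1000 CPM or more, 1.79% were lower. The higher genes followed the same order with smaller shares, from 0.220% under 1 CPM to 1.87% from 100 to 1000 CPM. CPM is not scaled by gene length, and genes with more reads are also tested with less counting error, so these shares describe the calls and not transcript abundance.

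The lower genes together held 2.31 to 2.78% of all counts at 6 mM, with a median of 2.57%, against 2.56 to 14.6% with a median of 4.67% at 10 mM. The 3 far libraries held 11.8, 12.2 and 14.6%, and without them the range at 10 mM was 2.56 to 6.59% with a median of 4.07%. Within groups of line and nitrate, the median SD of the lower genes on the log2 scale was 0.60 at 6 mM and 1.18 at 10 mM, and 84.3% of them varied more at 10 mM, against 61.2% of all genes. Without replicate 4 of ineffective Agate the median SD at 10 mM was 1.00. Without the 3 far libraries it was 0.83, and 72.7% of the lower genes varied more at 10 mM, against 51.4% of all genes. For the higher genes the median SD was 0.42 at 6 mM and 0.44 at 10 mM. The lower genes were chosen on these libraries, so these values describe them and test nothing.

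Some of the called genes were neighbours in the numbering of the table. Of 456 lower genes whose next identifier was tested, 59 (12.9%) had a next identifier that was also lower. Among 150 higher genes it was 1.33%. Without the 3 far libraries, where 133 genes were lower in all, it was 6 of 75 lower genes. The shares over all genes tested, 3.46% lower and 1.08% higher, are those of the call with all 27 libraries and do not apply without the far ones. No matching share is given for that fit, so the 6 of 75 cannot be set against one. Whether neighbours are copies of 1 gene was not tested.

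The response was then taken line by line, with 3 or 4 libraries on each side. Signs were shared: 744 of the 758 lower genes and 232 of the 236 higher genes had the same sign in all 4 lines, although the call itself was made on the same libraries. The median log2 fold change of the lower genes was -1.58 in effective Agate, -1.75 in ineffective Agate, -1.14 in effective Saranac and -1.51 in ineffective Saranac. Without the 3 far libraries 530 of 743 lower genes and 224 of 236 higher genes had the same sign in all 4 lines, and the medians of the lower genes were -0.76, -0.44, -1.11 and -1.05 in the same order. Across the 21921 genes, differences of mean log2 CPM between 6 and 10 mM had a Pearson r of 0.231 to 0.380 between any pair of lines, which have no libraries in common, and of 0.0558 to 0.269 without the 3 far libraries. These values are descriptive, since genes are not independent.

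Within single lines almost nothing passed. EdgeR called 0 genes in effective Agate, with 2641 at an unadjusted p under 0.05, 0 in effective Saranac, with 1187, and 0 in ineffective Saranac, with 1464. In the same order DESeq2 called 508, 67 and 152 genes and limma-trend 6, 0 and 0. In ineffective Agate the single call (0.00456% of genes tested, 1932 at an unadjusted p under 0.05) was MsG0380011912.01, and DESeq2 called 328 genes there and limma-trend 0. That identifier had 0.0702, 0.174 and 0.231 CPM at 6 mM, against 3.22, 2.23 and 3.62 CPM at 10 mM in this line, a log2 fold change of -4.17 ± 0.64 (SE, edgeR, adjusted p = 0.038). In the other lines its log2 fold change was 0.73 ± 0.50 in effective Agate, -0.01 ± 0.49 in effective Saranac and 0.56 ± 0.49 in ineffective Saranac (SE). The call held in 6 of the 27 fits that left out 1 library each. The line had 96 called genes once its replicate 4 at 10 mM was dropped, a fit that kept the far replicate 1 at 10 mM. It had 2 without its replicate 3 at 10 mM and 0 without that replicate 1.

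The nitrate difference was tested for dependence on fixation and on cultivar. For ineffective minus effective lines edgeR called 0 genes, with 794 at an unadjusted p under 0.05, while DESeq2 called 46 and limma-trend 0. For Saranac minus Agate edgeR called 0 genes, with 1013 at an unadjusted p under 0.05, while DESeq2 called 52 and limma-trend 0. These counts do not show that the lines respond alike.

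Each line could also be read against the others. When a line was left out of the fit, the genes called in the other 3 lines kept their direction in most cases in the line left out, whose libraries had no part in the call. Without effective Agate 95 genes were called lower, and 97.9% of them had a negative log2 fold change in effective Agate, with a median of -2.95. Without ineffective Agate 97.7% of 429 lower genes were negative there, with a median of -2.09. Without effective Saranac 91.9% of 385 were negative there, with a median of -1.15, and without ineffective Saranac 94.5% of 146, with a median of -2.89. Over all genes tested, 49 to 52.2% were negative in the same lines. The higher genes kept their sign in 75 to 100% of cases, for 6 to 115 genes per fit. Without the 3 far libraries 15 to 128 genes were called lower per fit, 89.8 to 100% of them negative in the line left out, where 46.6 to 49% of all genes were negative.

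A nitrate score summarised this per library. Each library was projected on the 6 minus 10 mM difference of the 3 other lines, over all 21921 genes, so that 1 and -1 are the 6 and 10 mM means of those lines. The 13 libraries at 6 mM scored between 0.306 and 0.879, with a median of 0.497, against -2.05 to 0.516 with a median of -0.385 for the 14 libraries at 10 mM. The levels overlapped through replicate 4 of ineffective Agate at 10 mM, at 0.516, and the next highest library at 10 mM scored 0.171. The 3 libraries far out on the first principal component had the lowest scores, -2.05, -1.93 and -1.42.

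By line, the mean score at 6 mM exceeded that at 10 mM by 1.34 in effective Agate (exact two-sided permutation p = 0.0286, the smallest possible), 1.22 in ineffective Agate (exact p = 0.2, smallest possible 0.1), 0.843 in effective Saranac (exact p = 0.0571) and 1.13 in ineffective Saranac (exact p = 0.0571). Adjusted over the 4 tests these became 0.0762, 0.2, 0.0762 and 0.0762, so no line passed on its own. With the 3 far libraries left out of axis and test, the 13 libraries at 6 mM scored 0.148 to 0.811 and the remaining 11 at 10 mM -0.687 to 0.267. In that setting the mean difference was 1.02 in effective Agate, 0.661 in ineffective Agate, 0.643 in effective Saranac and 0.536 in ineffective Saranac, and in each line it had the smallest exact p that the design allows, 0.0667, 0.1, 0.0286 and 0.1, unadjusted.

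**Figure D2:**
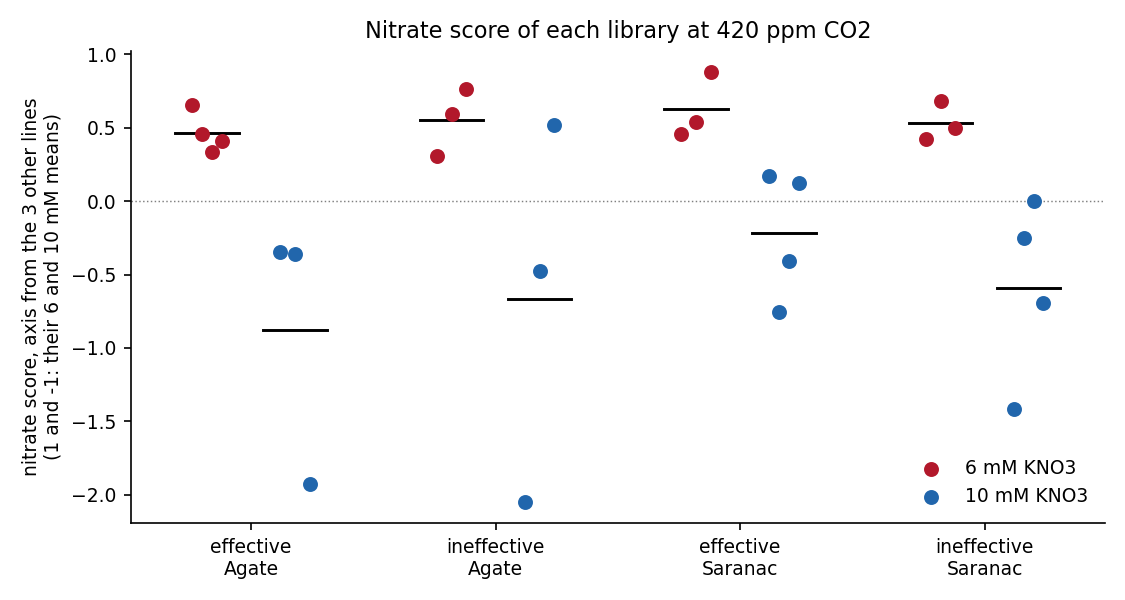
Nitrate score of each library at 420 ppm CO2, by line, with 6 mM in red left of 10 mM in blue, 1 point per library and bars at the group means. The axis of each line comes from the 3 other lines. Replicate 4 of ineffective Agate at 10 mM scores 0.516, inside the range of 0.306 to 0.879 at 6 mM.

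How many genes were called depended on which libraries entered. Of the 758 lower genes, 596 (78.6%) had their highest level of the 27 libraries in 1 of the 3 far libraries, against 20.1% of all genes tested. Replicate 1 of ineffective Agate alone held the highest level of 339 of them. Without these 3 libraries 133 genes were lower and 29 higher, and 155 of these 162 were among the 994. All of the 743 lower genes that remained testable were still negative, with a median log2 fold change of -0.95 against -1.54 with all libraries. The libraries kept in this fit also made the call, so the kept sign is no separate test. Dropping replicate 4 of ineffective Agate at 10 mM as well gave 226 genes.

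With 1 library left out at a time the count ran from 424, without replicate 3 of effective Agate at 10 mM, to 1362, without the ineffective Agate library of 10 mM numbered 4. It was 552 without the one numbered 1, and each of the other 24 libraries moved it by less than 1.5 times. All 4 identifiers shown above kept their call in each of these 27 fits, with log2 fold changes of -9.66 to -8.81 for MsG0280008438.01, -8.50 to -8.03 for MsG0280008439.01 and 1.33 to 1.57 for MsG0480018392.01. Leaving out all libraries of 1 replicate number also lowered the count. It was 210 without replicate 1, 146 without replicate 2, which holds none of the 4 libraries that stood apart, 137 without replicate 3 and 321 without replicate 4.

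**Figure D3:**
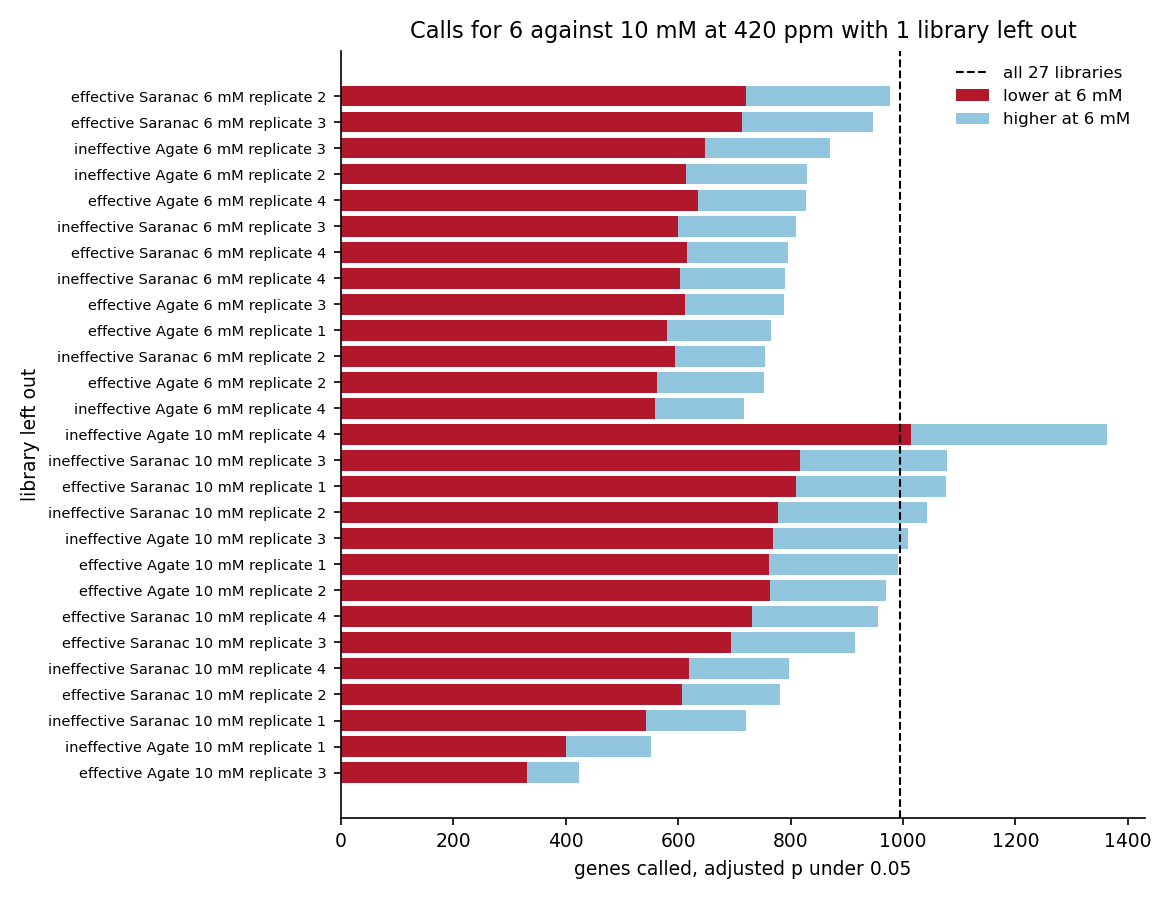
Number of genes called for 6 against 10 mM at 420 ppm when 1 library is left out, with genes lower at 6 mM in red and higher at 6 mM in light blue, libraries of 6 mM above those of 10 mM, and a dashed line at the 994 genes of all 27 libraries. The lowest count, 424, leaves out a library of effective Agate and the highest, 1362, one of ineffective Agate, both at 10 mM.

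No gene separated all 13 libraries at 6 mM from all 14 at 10 mM, 0% of those tested. With replicate 4 of ineffective Agate at 10 mM left out, 16 genes had every library at 6 mM below every library at 10 mM, 0.073% of the genes tested and 2.11% of the lower genes. The matching share in the higher direction was 0.00912% of the genes tested and 0.847% of the higher genes.

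The 100 genes with the most reads took 42.6 to 53.3% of the scaled counts at 6 mM and 23.7 to 61.5% at 10 mM. The 3 far libraries, with 37.5, 29.4 and 23.7%, lay below every library at 6 mM. At 10 mM so did replicate 3 of ineffective Agate, at 31.2%, and replicate 2 of effective Agate, at 33.4%. Without the far ones the libraries at 10 mM ran from 31.2 to 61.5%. Over the mean of lines the share was 3.00 percentage points higher at 6 mM (exact permutation within lines, two-sided, p = 0.381), and 0.244 points higher without the libraries of replicate 3. The number of identifiers with at least 1 CPM was 16604 to 16993 at 6 mM and 16359 to 16966 at 10 mM, lower by 22.2 at 6 mM over the mean of lines (exact permutation within lines, two-sided, p = 0.713). The part of the concentrated share in the calls was not tested.

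At the highest nitrate dose and 420 ppm, both sets of genes had median levels between those at 6 and 10 mM. On the nitrate axis of all 27 libraries, the 15 libraries at 16 mM scored -0.797 to 0.852 with a median of -0.242. The mean log2 CPM of the lower genes had a median of 2.45 at 6 mM, 3.63 at 10 mM and 3.41 at 16 mM, and that of the higher genes 4.20, 3.42 and 3.72. These sets were chosen for the difference between the first 2 doses, so only the values at 16 mM are free of the choice. The choice widens the gap between those 2 doses, so the place of 16 mM between them is a description. Of the 15 libraries at 16 mM, all but those at 2.33 and 2.64 lay above the highest 6 mM library, at 2.68, for the lower genes.

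Tested with 3 doses in 1 model, 6 against 16 mM gave 54 genes higher (0.236%) and 215 lower (0.94%) at 6 mM, together 1.18% of 22876, and 10 against 16 mM gave 0 higher and 2 lower at 10 mM (0.00874%), with 2808 at an unadjusted p under 0.05, while DESeq2 called 309 and limma-trend 0. These comparisons share the 6 mM or the 10 mM libraries with the main one. MsG0280008438.01 had a median of 12.5 CPM over the 15 libraries at 16 mM, with 2 of them at 0 and the highest at 264 CPM. Its log2 fold change was -9.19 ± 1.37 for 6 over 16 mM (SE, edgeR, adjusted p = 0.0012) and 0.06 ± 0.97 for 10 over 16 mM (SE, edgeR, adjusted p = 0.99). The leading gene of 10 against 16 mM, MsG0880042533.01, had a median of 4.12 CPM at 6 mM, 3.78 at 10 mM and 10.4 at 16 mM, with a log2 fold change of -1.67 ± 0.31 for 10 over 16 mM (SE, edgeR, adjusted p = 0.034). The other, MsG0780036124.01, named after its values were seen, had 1 count over the libraries at 10 mM and 106 over those at 16 mM (adjusted p = 0.034). Neither kept its call when the libraries of any 1 replicate number were left out, and 6 against 16 mM fell to 0 genes without replicate 2 and to 2 without replicate 4.

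The same 2 nitrate doses at 600 ppm gave a different picture. There 332 genes were higher (1.46%) and 215 lower (0.944%) at 6 mM, together 2.4% of 22765. This count was 0 without the libraries of replicate 1 or of replicate 3, with 2508 and 2747 genes at an unadjusted p under 0.05. Tested directly, the 6 over 10 mM log2 fold change at 420 ppm differed from that at 600 ppm in 2123 genes, 8.95% of 23729, and was more negative at 420 ppm in 1453 of them (6.12%) and more positive in 670 (2.82%). Without the 3 far libraries 841 genes were called, 530 more negative and 311 more positive. CO2 levels were kept in separate chambers, so CO2 and chamber cannot be told apart.

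The genes called for this difference were chosen by it, which favours opposite signs at the 2 CO2 levels, so the following counts are a description. Of the 2009 with a value at both, 1291 were lower at 6 mM at 420 ppm and higher at 6 mM at 600 ppm, 640 were the reverse, 69 were lower at both and 9 higher at both. These are signs of fold changes and not calls at each level. Signs were opposite in 54.7% of all 21479 genes with a value at both.

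MsG0280008854.01 led the genes that were more negative at 420 ppm, after MsG0280008438.01. At 420 ppm it ran from 4.14 to 11.4 CPM with a median of 7.78 at 6 mM, against 6.71 to 79.8 CPM with a median of 21.4 at 10 mM. At 600 ppm it ran from 15.2 to 99.2 CPM with a median of 58.3 at 6 mM, against 4.29 to 49.8 CPM with a median of 14.5 at 10 mM. The gene was thus lower at 6 mM at 420 ppm and higher at 6 mM at 600 ppm, with overlap at both. The log2 fold change was -1.88 ± 0.32 at 420 ppm (SE, edgeR, adjusted p = 0.0019) and 1.78 ± 0.31 at 600 ppm (SE, edgeR, adjusted p = 0.0057), and the difference between them was -3.68 ± 0.46 (SE, edgeR, adjusted p = 2.53e-06).

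For MsG0280008438.01 the difference came with high levels of both doses at 600 ppm. There it ran from 35.1 to 165 CPM with a median of 75.6 at 6 mM, against 0.0887 to 465 CPM with a median of 89.0 at 10 mM. The log2 fold change at 600 ppm was -0.57 ± 0.60 (SE, edgeR, adjusted p = 0.72), and the 420 minus 600 ppm difference was -8.81 ± 1.07 (SE, edgeR, adjusted p = 1.81e-06). None of the 15 libraries at 6 mM and 600 ppm was near 0, while at 10 mM and 600 ppm the lowest was.

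The leading genes in the positive direction were the consecutive identifiers MsG0780039510.01 and MsG0780039511.01. The first ran from 20.6 to 156 CPM with a median of 50.6 at 6 mM and 420 ppm, against 6.84 to 44.3 CPM with a median of 18.4 at 10 mM and 420 ppm. At 600 ppm it ran from 3.97 to 22.9 CPM with a median of 11.6 at 6 mM, against 7.94 to 49.7 CPM with a median of 27.4 at 10 mM. It was thus higher at 6 mM at 420 ppm and lower at 6 mM at 600 ppm, with overlap at both levels. Its log2 fold change was 1.61 ± 0.31 at 420 ppm (SE, edgeR, adjusted p = 0.0047) and -1.25 ± 0.26 at 600 ppm (SE, edgeR, adjusted p = 0.013), a difference of 2.87 ± 0.41 (SE, edgeR, adjusted p = 1.42e-05). For MsG0780039511.01 the values were 1.35 ± 0.31 at 420 ppm, -1.33 ± 0.25 at 600 ppm and 2.68 ± 0.40 for the difference (SE, edgeR, adjusted p = 0.015, 0.0090 and 1.89e-05). Whether this pair shares reads was not tested.

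**Figure D4:**
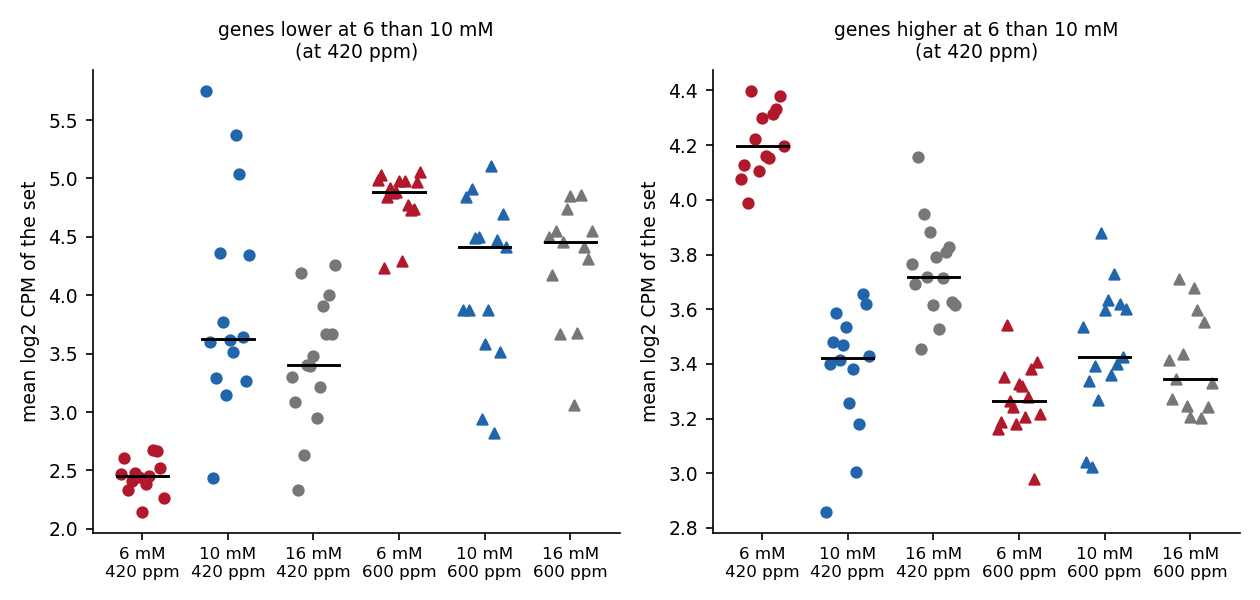
Mean log2 CPM of the 758 genes lower (left) and the 236 genes higher (right) at 6 than at 10 mM at 420 ppm, in each of the 85 grouped libraries, by nitrate and CO2 level, with circles for 420 and triangles for 600 ppm and bars at the medians. For the lower genes the medians are 2.45 at 6 mM and 420 ppm and 4.88 at 6 mM and 600 ppm. The first 2 columns of each panel were used to choose the genes.

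The genes called at 420 ppm could be read in 2 comparisons that share no library with the call. In 6 against 10 mM at 600 ppm, 75.3% of the 758 lower genes had a positive log2 fold change, with a median of 0.32, against 48.7% of all genes tested and a median of -0.01. Of the 758, 62 were called at 600 ppm, 57 of them higher at 6 mM, against 518 of the 21479 genes with a value, 306 of them higher. Of the 232 higher genes with a value, 66.8% were negative, and 10 were called at 600 ppm, 9 of them lower at 6 mM. For the genes called without the 3 far libraries, 71.4% of 133 lower genes were positive and 75.9% of 29 higher genes were negative.

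At 16 mM, 600 against 420 ppm CO2 gave a positive log2 fold change in 78.6% of the lower genes, with a median of 0.52, against 10754 of 21505 genes with a value. There 213 were called higher and 22 lower at 600 ppm. That comparison called 18.1% of the genes tested in it, 8.45% higher and 9.7% lower. Of the 234 higher genes with a value 75.2% were negative, and of all of them 62 were called lower and 10 higher at 600 ppm. With the 3 far libraries left out of the call, 82.7% of the 133 lower genes were positive and 82.8% of the 29 higher genes were negative. Across the 21921 genes the 6 minus 10 mM difference of mean log2 CPM at 420 ppm had a Pearson r of -0.325 with that at 600 ppm and of -0.321 with the CO2 change at 16 mM, against -0.177 and -0.183 without the 3 far libraries, given as descriptions since genes are not independent.

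**Figure D5:**
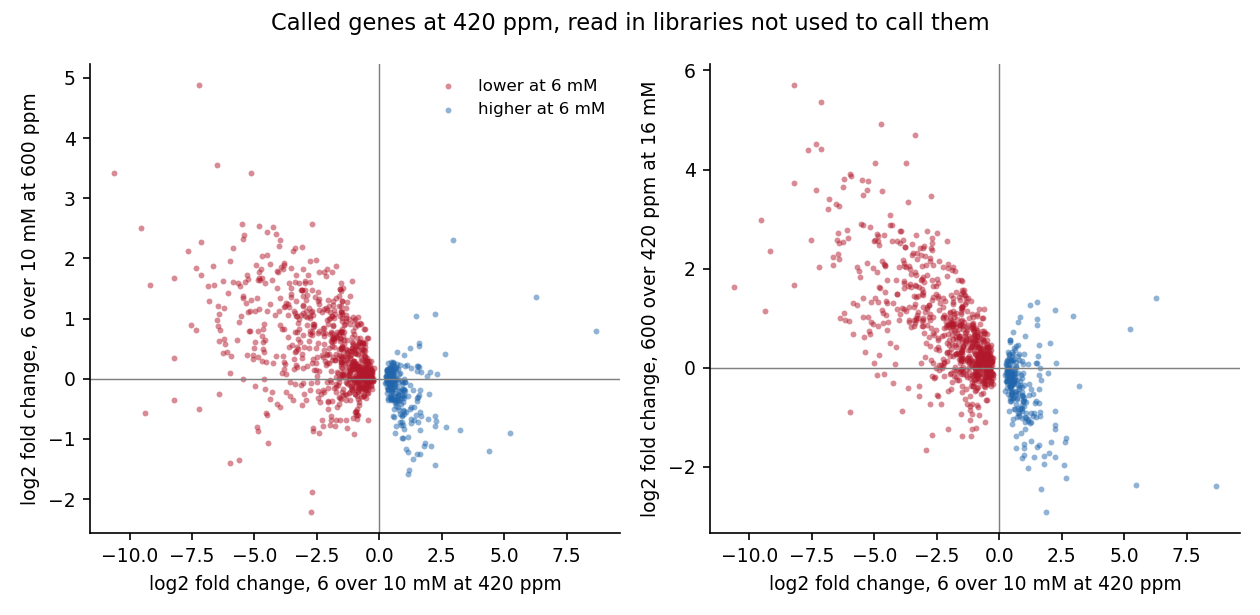
Log2 fold change of each gene called for 6 over 10 mM at 420 ppm (horizontal axis) against its log2 fold change for 6 over 10 mM at 600 ppm (left panel) and for 600 over 420 ppm at 16 mM (right panel), red for genes lower and blue for genes higher at 6 mM, 1 point per gene. Of the lower genes 75.3% lie above 0 on the left and 78.6% on the right.

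By library, the mean log2 CPM of the lower genes ran from 2.15 to 2.68 at 6 mM and 420 ppm and from 4.23 to 5.06 at 6 mM and 600 ppm, with no overlap between the CO2 levels. These genes were chosen for low levels in the same libraries at 6 mM and 420 ppm, so this gap is a description. Only the values at 600 ppm are free of the choice. At 10 mM it ran from 2.44 to 5.75 at 420 ppm and from 2.82 to 5.10 at 600 ppm. The 3 far libraries at 10 mM and 420 ppm stood at 5.75, 5.37 and 5.04 and the other 11 reached at most 4.36. On the nitrate axis the medians at 600 ppm were -1.53 at 6 mM, -1.16 at 10 mM and -1.16 at 16 mM.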

How the data were processed

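Raw counts per gene for 49095 identifiers in 86 leaf libraries were produced by the authors with featureCounts, per the submitters' processing notes, and deposited as 1 table. Not given in the sources used here: version, aligner, build, annotation and strand setting, so antisense and overlapping genes cannot be separated with certainty. The libraries came from polyadenylated RNA with a stranded kit, per the labels' protocols. Groups came from the labels.

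Counts were tested with edgeR 4.0.16 in R 4.3.3 (TMM scaling, filterByExpr by line and nitrate, robust glmQLFit, glmQLFTest) with line as a block, and p-values were adjusted by Benjamini-Hochberg over all genes tested, with a threshold of 0.05. Models of single lines used 1 coefficient per line and nitrate level. Each SE was obtained as the size of the log2 fold change divided by the root of F. Levels are TMM-scaled CPM over the 86 libraries and the genes tested at 420 ppm, and log2 CPM uses a prior count of 2. Named identifiers are at most 2 higher and 2 lower per comparison, with adjusted p under 0.05, a log2 fold change of at least 1 in size, a mean of at least 1 CPM and, over lines, the same sign in all 4, ranked by p. For the comparisons at 600 ppm and with 16 mM only those that bear on the main one are printed. Scripts were tested on simulated counts. The alternatives were limma-trend (limma 3.58.1), DESeq2 1.42.0 and its size factors, no filter, other models and left-out libraries. The members and lists were chosen with earlier results of these data known. None of the 49095 identifiers matched names in the RefSeq table of assembly Bolivia_mono, so lists by function were not run.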

Additional observations from a re-analysis of the deposited data

Results flagged for a closer look

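The nitrate difference of 6 over 10 mM differed between 420 and 600 ppm CO2 in 2123 genes by edgeR's test of the difference itself. The log2 difference, 420 minus 600 ppm, was 2.87 for MsG0780039510.01, 2.68 for MsG0780039511.01, -8.81 for MsG0280008438.01 and -3.68 for MsG0280008854.01.

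MsG0380015000.01 had 1 library far from the other 3 in 2 groups. In effective Agate at 6 mM 1 library held 1.01 CPM and the others 0, and in ineffective Saranac at 10 mM 1 library held 0.11 CPM and the others 0. These were 2 of 36 sets of 4 values examined, each set being 1 gene or 1 library measure in 1 group of 4 libraries. Where the other 3 libraries have no counts, any count stands apart, so the chance rate of about 1 in 20 does not apply to them.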

How the results depend on the processing

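The 994 genes called for 6 against 10 mM at 420 ppm became 1996 with DESeq2, 614 with limma-trend and 1752 in 1 model of 85 libraries in 24 groups, and 162 and 226 without the libraries that stood apart, settings chosen after seeing the data. The direction of every called gene that remained testable was kept in all of these. They use libraries that made the call, so this is no separate test. In 1 model of 85 libraries the single lines had 167 genes (effective Agate), 0 (ineffective Agate), 1 (effective Saranac) and 1 (ineffective Saranac). DESeq2 gave 508, 328, 67 and 152 genes in the same order, 46 and 52 for the interactions with fixation and cultivar, 1417 at 600 ppm, 750 for 6 against 16 mM and 309 for 10 against 16 mM. Limma-trend gave 6, 0, 869, 177 and 0 in effective Agate, ineffective Agate, at 600 ppm, and for 6 and 10 against 16 mM. No filter on low counts gave 317 at 600 ppm. The model of 85 libraries gave 495 for 6 against 16 mM and 290 for 10 against 16 mM. The difference between CO2 levels had 841 genes without the 3 far libraries, and 10 against 16 mM had 0 genes in edgeR without replicate 4 of ineffective Agate at 10 mM. In each of these the cause was not tested.

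Leaving out 1 replicate number, or 1 library where run, gave 137 to 1362 genes for the main comparison, 0 to 8 in effective Agate, 0 to 96 in ineffective Agate, 0 to 1 in effective Saranac, 0 to 4 in ineffective Saranac, 0 to 576 at 600 ppm, 560 to 2346 for the difference between CO2 levels, 0 to 278 for 6 against 16 mM and 0 to 3 for 10 against 16 mM. The difference in identifiers with at least 1 CPM ran from -55.5 to 31.2 per library and so changed sign without replicate 3. The mean score difference, 1.13, ran from 0.714 to 1.54 over its alternatives.

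Over all lines the 11 same-numbered pairs of libraries had a median correlation of deviations of 0.00757, and 1 was over 0.1. In effective Agate they had 0.0862, 0.0964 and 0.148, above every pair of different number, at most 0.0289. In effective Saranac they had 0.0529, 0.00757 and 0.0538, in ineffective Agate 0.00128 and -0.0749, and in ineffective Saranac -0.0675, -0.0562 and -0.107. Pairs were taken within lines only, so a replicate effect shared across lines was not tested. With the replicate block the main count was 207 (174 lower and 33 higher, 206 of them among the 994), and 0 in ineffective Agate, 120 for 6 against 16 mM and 0 for 10 against 16 mM. Counts limit the genes under 1 CPM most, of which 1.17% were called lower and 0.22% higher.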

Other observations

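The Agate library at 10 mM and 420 ppm whose labels contradict each other on fixation entered no comparison. It had a total count of 19724147, a nitrate score of -0.670 on the axis of the 27 libraries, a mean log2 CPM of 3.83 over the lower genes and 3.49 over the higher genes, and 5.06% of its counts in the lower genes.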
